A study of Mus musculus with 20 samples.

Results

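Of the 42006 probes on the array, 118 rose late in culture and did so alike under both tamoxifen schedules. They were chosen by their measured ratios on the arrays of days 0, 2 and 4. A probe was taken in if it was well above background in the sample channel on all 4 arrays of day 4 and if its log2 ratio of sample over reference was at least 1.4 higher on day 4 than on day 0 under each schedule. Its day 4 values under the 2 schedules also had to lie within 0.3 of each other, and its day 2 values in continued tamoxifen and without tamoxifen within 0.3. Of the 27355 probes well above background on day 4, 650 rose in both schedules, 377 of these met the day 4 limit, and the day 2 limit left the 118. The other 532 probes that rose in both schedules missed a limit on tamoxifen and served for comparison.

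The arrays came from ES-ZERT #18 cells, a clone picked after V6.5 embryonic stem (ES) cells of the mouse had been transfected with Zscan4-ERT2 under the pCAG promoter and a neomycin resistance vector. Every group carries this transgene, day 0 included, so no group without it enters a comparison here, and 1 clone stands for the genotype. Cells grew as a monolayer on gelatin in ES medium with serum and LIF. There were 10 groups with 2 arrays each: untreated cells on days 0, 1 and 2, cells in 200 nM tamoxifen on day 1, cells kept in it through days 2, 3 and 4 (continued), and cells given it on day 1 and then ES medium until day 2, 3 or 4 (withdrawn). Every group of days 3 and 4 had received tamoxifen, so a rise of these probes in untreated cells after day 2 was not analysed here.

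Mouse ES cells are pluripotent cells that divide without limit in medium with LIF. Zscan4 genes encode proteins with zinc fingers and a SCAN domain that are made in the early embryo and, in ES cell cultures, in brief bursts in a small share of cells. ERT2 is a hormone-binding domain that keeps a protein fused to it inactive until tamoxifen is added. On days 3 and 4, time in culture and the tamoxifen of day 1, which both schedules share, cannot be told apart.

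Each array compared a Cy3-labelled sample with a Cy5-labelled reference pool of RNA from 11 mouse cell lines mixed with ES cell RNA. Between 26199 and 30069 probes per array were well above background, and over the 29414 probes tested the 2 arrays of a group had correlations of 0.9845 to 0.9954. Nothing in the labels says that these 2 arrays stand for separate cultures. The p-values then measure only the spread between samples, which may be technical. The files name no gene for any probe, and 0 of the 118 matched the supplied gene, promoter or miRNA tables, so that neither the ES cell identity nor the function of the members could be checked against genes. All are given by probe identifier.

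The members are oligonucleotides of 60 bases, and a stretch of 30 bases is printed for those that the results turn on. The first set is the 4 members with the largest rise by the rule and 3 bright members described further on, each with bases 1 to 30, in lower case because no part of them is singled out.
Z00029824-1: taatgtatacagcaggaatgttttctaagg
Z00028048-1: agaaatgggttacagggtgaatactgttgt
Z00030610-1: aataatttcacctaagtgtcacccttcagt
Z00038530-1: ccctatgcagttctggacgaatactgatgt
Z00063867-1: caccaggacaactcctcgagactctactgt
Z00048321-1: tgaacagagagatggacaggcgggtgatgg
Z00029465-1: cgccgagatcttgctgcatctctagacttt

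The second set shows members that share a run of bases with another probe. Which transcripts the probes match was not tested. Capitals mark the shared run. The first 2 are both members and share 28 bases, and the last 2 are a member and a probe outside the group that share 25.
Z00046305-1: GAGATCCGTGCATGATAGATTCCTTCGTct
Z00075119-1: atGAGATCCGTGCATGATAGATTCCTTCGT
Z00055606-1: agaatGCAGTGCAATGGACTTGCCAGAATT
Z00022844-1: GCAGTGCAATGGACTTGCCAGAATTcgagg

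The rise from day 0 to day 4 chose the members and is given here as a description. On the processed signals that the rule used, the median rise was 1.74 (log2) in continued and 1.76 in withdrawn tamoxifen, and the highest were 3.80 and 3.93, both of Z00029824-1. After background correction with an offset, which keeps dim probes from giving large ratios, the medians were 1.16 and 1.15, against 0.04 and 0.03 over all probes tested. More cells of a type and more RNA per cell cannot be told apart in such bulk samples. All values from here on are on this second scale unless the processed signals are named. It brings 25 members to a rise under 0.5 and leaves 66 at 1 or more. The rise lay in the sample channel, whose median over the members was 1.04 and 1.02 higher on day 4 than on day 0. The reference channel, which holds the same pool on every array, moved by -0.08 and -0.06.

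How bright a member is sets how much of its fold is known. On all 20 arrays, 73 members were well above background, and their rise ran from 0.54 to 2.27 with a median of 1.47, or 1.46-fold to 4.83-fold with a median of 2.77-fold. The other 45 rose by 0.16 to 1.76, with a median of 0.48. For 27 members no day 0 array was well above background, so only a lower bound is known, between 1.09-fold and 2.91-fold in continued and between 1.04-fold and 3.06-fold in withdrawn tamoxifen. A bound sets the mean of the day 4 arrays against, for each day 0 array, the higher of the probe's own signal and the lowest signal among probes well above background.

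The 4 members with the largest rise by the rule were dim at the start, with at most 1 of the 2 day 0 arrays well above background. Z00029824-1 had log2 ratios of -0.37 and -0.40 on day 0, when neither array was well above background, 0.21 and 0.36 on day 3 after withdrawal, and 1.37 and 1.49 on day 4 after withdrawal. In continued tamoxifen it had 0.33 and 0.43 on day 3 and 1.26 and 1.36 on day 4. Its day 4 arrays lie above all others and those of day 3 above all earlier ones. The day 4 level was at least 2.91-fold above day 0 in continued and at least 3.06-fold in withdrawn tamoxifen.

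Z00030610-1 made most of its rise after day 3. Its ratios were -1.58 and -1.42 on day 0, between -1.76 and -1.57 on the 10 arrays of days 1 and 2, and between -1.53 and -1.39 on the 4 arrays of day 3. On day 4 they were 0.19 and 0.44 after withdrawal and -0.06 and 0.27 in continued tamoxifen, above every earlier array. A small difference was called before that, from day 1 in tamoxifen to day 3 in continued tamoxifen (0.30, SE 0.098, limma adjusted p = 0.018), with the day 1 arrays not well above background. Z00028048-1 went from -0.09 and 0.18 on day 0 to 0.80 and 0.87 after withdrawal and 0.69 and 1.00 in continued tamoxifen, at least 1.49-fold and 1.55-fold. Z00038530-1, at 3.07 on the processed signals, moved only from -0.09 and -0.11 to 0.09 and 0.31 after withdrawal and 0.22 and 0.30 in continued tamoxifen, at least 1.17-fold and 1.19-fold, and was well above background on no array before day 4.

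Among the always-detected members the largest rise was that of Z00063867-1, chosen for description after its values were seen, as were all further members described singly. Its ratios were -0.08 and -0.23 on day 0, 0.05 and 0.03 on day 2 after withdrawal, 0.78 and 0.80 on day 3, and 2.24 and 2.28 on day 4. Continued tamoxifen gave 0.81 on both arrays of day 3 and 1.95 and 1.99 on day 4. The replicate arrays lie close together and the day 3 arrays stand between those of day 2 and day 4. Z00048321-1 stood at a far lower ratio to the pool and made a larger part of its rise after day 3. Its ratios were -3.49 and -3.54 on day 0 and -3.19 and -3.20 on day 3 after withdrawal. On day 4 they were -1.40 and -1.27 after withdrawal and -1.61 and -1.46 in continued tamoxifen.

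Among the 73 always-detected members the step from day 3 to day 4 was 62.7% of the rise (median) after withdrawal and 59.8% in continued tamoxifen, and exceeded 50% in 54 and 51 of them. As these day 4 arrays chose the members, the shares are descriptions. Day 4 lay alone on slide 5 in a scan session of its own, so that day and slide cannot be told apart for this step. Over all members the step was negative in 6 after withdrawal and in 7 in continued tamoxifen. One of these was Z00055606-1, whose mean ratio was -2.27 ± 0.20 (SD, n = 2) on day 2 after withdrawal, -0.82 ± 0.041 on day 3 and -0.89 ± 0.44 on day 4.

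The arrays of day 1, of day 2 after withdrawal and of day 3 did not enter the rule, so comparisons among them are tests. A probe was called at an adjusted p under 0.05 in limma (Benjamini-Hochberg over 29414 probes). From day 1 in tamoxifen to day 2 after withdrawal, 66 of the 118 members were higher and 2 lower, with a median difference of 0.23 against 0.00 over all probes tested. Over all probes tested, 21.4% were called higher and 18.2% lower. The 66 differences ran from 0.15 to 2.74 with a median of 0.41. In 7 of them the day 1 arrays were not well above background.

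From day 2 to day 3 after withdrawal, 56 members were higher and 0 lower (limma, unadjusted p under 0.05 in 65 members, either direction), where 13.7% of all probes tested were higher and 11.7% lower. Of the 29414 probes tested, 10768 had an unadjusted p under 0.05 (limma). The median over members was 0.21 and over all probes 0.00. This step crosses from slide 3 to slide 4 and between scan sessions, whereas the day 1 to day 2 step lies in 1 session on 2 slides. When the 12 extreme local background cells described with the processing were kept as given, 31 members were higher at the first step, where 13.1% of all probes were higher and 11.0% lower, and 27 at the second, where 5.52% and 5.08% were. Under that setting 0 members were lower at either step. The untreated day 1 array that holds these cells is in neither comparison, and the medians over members stayed at 0.23 and 0.21. It enters the fit through the residual variance shared by all 20 arrays.

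From day 1 to day 3 in continued tamoxifen, 92 members were higher and 1 lower, against 28.6% and 23.1% of all probes tested, and the median was 0.58 against 0.02. The 2 groups lay on slides 2 and 4 and in different scan sessions. With local backgrounds as given, 66 members were higher and 0 lower, against 19.4% and 16.5% of all probes, at the same median of 0.58. With median centring in place of loess, 88 members were higher and 2 lower against 38.3% and 13.7% of all probes, and at the 2 steps after withdrawal 64 and 1 against 23.7% and 11.5%, and 55 and 1 against 16.9% and 5.80%. This comparison and the first share their day 1 arrays, so their counts are not independent of each other. Among the 73 always-detected members 69 were higher and 0 lower, and among the other 45, 23 were higher and 1 lower. The other 532 probes that rose in both schedules were higher in 435 and lower in 2, with a median of 0.57, so that their share does not set the members apart. Nor do the 2 steps after withdrawal. At the first, 54.7% of the 532 were higher and 2.63% lower, against 55.9% and 1.69% of the members. At the second, 49.1% were higher and 3.2% lower, against 47.5% and 0% of the members.

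The largest change at the first step was that of Z00029465-1, the member with the deepest fall on day 1 in tamoxifen. Its ratios were 1.02 and 0.97 on day 0, -0.32 and -0.09 on untreated day 1, and -0.60 and -0.90 on day 1 in tamoxifen. On day 2 they were 1.84 and 1.97 without tamoxifen, 2.11 and 2.05 in continued tamoxifen and 2.02 and 1.96 after withdrawal, and on day 4 between 2.68 and 2.86 on all 4 arrays. The fall and the return are present in every group of those days. From day 1 in tamoxifen to day 2 after withdrawal it rose 6.68-fold (log2 2.74, SE 0.092, limma adjusted p = 2.2e-12), and on day 1 it was lower with tamoxifen than without by 0.54 on the log2 scale (adjusted p = 0.00038).

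A fall on day 1 was common among the members. On the group means, 88 lay below day 0 on untreated day 1 and 76 on day 1 in tamoxifen, with medians of -0.11 and -0.09 against -0.01 over all probes in both. Over the 29414 probes tested, 15206 and 15049 lay below day 0. Of the 118, 66 (55.9%) lay below day 0 in both groups, as did 40.7% of all probes tested. Day 0 is an array group that the rule used, and a member low on day 0 was favoured by it, so these are descriptions. Among the always-detected members 50 lay below day 0 in both day 1 groups, and the median on untreated day 1 was -0.36. The level on day 2 was near that of day 0 in all 3 groups, at medians of 0.09 without tamoxifen, 0.12 in continued and 0.11 in withdrawn tamoxifen.

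The time course of the whole group, as the median of the differences from day 0 with the quartiles of the members, ran as follows. On day 3 the median was 0.29 (quartiles 0.15 and 0.59) after withdrawal and 0.33 (0.17 and 0.65) in continued tamoxifen, and on day 4 it was 1.15 (0.52 and 1.53) and 1.16 (0.55 and 1.5). The 2 arrays of a group gave nearly the same median, the farthest apart on day 4 being 1.12 and 1.23 in continued tamoxifen. The other 532 probes that rose in both schedules climbed more evenly, with medians of 0.28 on day 2, 0.64 on day 3 and 1.18 on day 4 in continued tamoxifen, and of 0.25, 0.54 and 1.02 after withdrawal. Without tamoxifen on day 2 their median was 0.01. These probes had missed a limit on tamoxifen that the members met, so the rule favours this contrast with the members. Over all probes tested, the medians of every group lay between -0.01 and 0.04.

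Whether the members differ between the schedules was tested on day 3, on arrays of 1 slide that the rule did not use. Between continued and withdrawn tamoxifen on day 3, 0 members were called in either direction by limma, 3 had an unadjusted p under 0.05, and the lowest adjusted p was 0.49. Of the 29414 probes tested, 2737 had an unadjusted p under 0.05 (limma). The day 4 limit of the rule favours members that agree between schedules. Over all probes tested 0.153% were called higher and 0.367% lower, so 0 of 118 is near the background. The differences ran from -0.13 for Z00066149-1 to 0.23 for Z00074545-1 with a median of 0.02. The 95% interval of the difference lay within 0.3 of 0 for 104 members and reached past it for 14. The lowest bound was -0.56 and the highest 0.51, the latter for Z00055606-1 (difference -0.03, interval -0.56 to 0.51). Of the other 532 probes, whose rule required a difference between schedules or on day 2, 22 were higher in continued tamoxifen and 0 lower, with a median of 0.10.

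On day 1, 6 members were higher with tamoxifen than without and 6 lower (limma, adjusted p under 0.05), or 5.08% each way, against 9.34% and 9.39% of all probes tested. Of the 6 higher, 2 were well above background in neither group. The median over members was 0.02. The 2 groups lay on slides 2 and 1. Leaving out 1 array at a time, the median over members was 0.01 to 0.02. The number called changed with the array left out, both among the members and over all probes tested. Of the other 532 probes, 173 were higher and 6 lower on day 1. The day 2 limit kept probes that differ with tamoxifen out of the members, so the rule favours this contrast.

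In the comparisons between days 2 members were called lower, and these calls depend on the processing. At the first step 0 were lower without background correction, with local backgrounds as given, in the series matrix or without the first day 2 withdrawn array, and 3 without the second. For day 3 in continued tamoxifen against day 1, 0 were lower under each of these first 3 settings. Z00046780-1 fell by 0.28 from day 1 in tamoxifen to day 2 after withdrawal (SE 0.11, limma adjusted p = 0.042) and by 0.27 to day 3 in continued tamoxifen (adjusted p = 0.039). Its tamoxifen arrays of day 1, at 0.75 and 0.45, were higher than the untreated ones at 0.22 and 0.32 (difference 0.33, adjusted p = 0.036). Z00063207-1 was lower on day 2 after withdrawal than on day 1 in tamoxifen (difference -0.26, SE 0.073, adjusted p = 0.0092, at least 1.19-fold), the day 2 arrays being not well above background. It was higher again on day 3 (difference 0.37, adjusted p = 0.0012). Its day 3 means, 0.01 ± 0.064 after withdrawal and 0.06 ± 0.0098 in continued tamoxifen (SD, n = 2), lay above those of day 4, -0.19 ± 0.016 and -0.10 ± 0.11, so that on this scale its highest means were those of day 3.

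Of the 118 members, 8 share at least 20 bases with another probe, in 2 pairs of members and 4 pairs of a member with another probe. Z00046305-1 and Z00075119-1, which share 28 bases, gave nearly the same values in all 10 groups, and their differences from day 0 were never more than 0.15 apart. Both went from about the day 0 level on day 3 (-0.42 and -0.37 after withdrawal) to 0.97 and 1.06 on day 4. Both had been lower on day 1, at -1.01 and -1.13 without tamoxifen and -0.95 and -1.06 with it. Both were called higher at the first step (0.74 and 0.82, limma adjusted p = 1.6e-05 and 6.8e-06) and in neither direction at the second (-0.22 and -0.13, adjusted p = 0.13 and 0.39).

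The pair Z00000336-1 and Z00055328-1, which shares 33 bases, ran another course, and a run of 30 of these bases is shown as a single line.
Z00000336-1 and Z00055328-1: CCCGAGCCTGGAAGATAGTCTGAAACTGCT
Z00000336-1 stood at -1.02 and -0.97 on day 0, -2.12 and -2.20 on day 1 in tamoxifen, -1.76 on both arrays of day 2 after withdrawal, -0.72 and -0.68 on day 3 and 0.90 and 1.01 on day 4 after withdrawal. Unlike the previous pair, it was still below day 0 on day 2. Z00055328-1 took the same steps with smaller size. From day 2 to day 3 after withdrawal the first rose by 1.06 (SE 0.10, limma adjusted p = 1.4e-06) and the second by 0.69 (SE 0.087, adjusted p = 2.4e-05).

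Overlapping probes did not always move alike. Z00055606-1 shares 25 of its 60 bases with Z00022844-1, and only the first is a member. Z00055606-1 rose by 1.45 from day 2 to day 3 after withdrawal (SE 0.25, limma adjusted p = 0.00048) from a ratio far below the pool, at -2.72 and -2.55 on day 0. Z00022844-1 lay above the pool throughout, at 0.54 and 0.75 on day 0, 1.15 and 1.07 on day 2, 1.01 and 1.08 on day 3 and 0.66 and 0.91 on day 4 after withdrawal. The changes of the pair from day 0 were up to 1.62 apart. Z00055606-1 also had a wide gap between replicates, -2.57 and -3.73 on untreated day 1.

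The remaining 3 overlaps show how the limits of the rule, that on the rise included, part probes that share most of their bases. Z00074496-1 shares 49 bases with Z00038987-1, which rose more on the processed signals (2.30 against 1.75). On those signals Z00038987-1 differed by -0.49 between schedules on day 4 and by -0.42 with tamoxifen on day 2. In the fit its means were 0.11 on day 0, and 0.29 in continued and 0.48 in withdrawn tamoxifen on day 4. Those of Z00074496-1 were 0.14, 0.76 and 0.91. On day 2 Z00038987-1 had 0.58 in continued tamoxifen and 0.56 without tamoxifen. It was well above background on 13 arrays and Z00074496-1 on 20. A run of 30 shared bases reads as follows.
Z00074496-1 and Z00038987-1: TTCAGGGCAGGACTAATAATAGGGCATTAT
Both probes were highest on day 2, where the 6 arrays of Z00074496-1 lay between 0.77 and 1.38, and at the first step the member had an adjusted p of 0.061 and the other 0.020 (limma). Z00074905-1 shares 42 bases with Z00026338-1, whose day 4 difference on the processed signals was -0.42. In the fit its day 4 means were 0.78 in continued and 0.91 in withdrawn tamoxifen. Z00056602-1 shares 49 with Z00049275-1, and they were well above background on 5 and 7 arrays.

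Members tended to start below the reference pool. On both day 0 arrays 36 members (30.5%) had a ratio under -1, against 12.0% of all probes tested, and 0 members a ratio above 1, against 1839 of all probes tested. The median day 0 ratio was -0.56 against 0.00. On day 4, 73 members lay above 0 on all 4 arrays and 22 above 1, where 21 had lain above 0 on both day 0 arrays. They were also dim, with a median sample channel level of 7.04 (log2) on day 0 and 8.16 on day 4, against 8.68 and 8.74 over all probes tested. A required rise favours probes that start low, so the difference is not a property apart from the rule.

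The probe sequences were otherwise near those of the array. Their GC content had a median of 43.3% (quartiles 38.3% and 48.3%), against 45.0% over all probes tested (38.3% and 51.7%). The hexamer AATAAA, the usual polyadenylation signal, is present in 13 members (11.0%) and in 7.50% of all probes tested, searched on the printed strand only. The pentamer ATTTA, the core of AU-rich elements, is present in 10 members (8.47%) and in 6.93%. A forward reading frame free of stop codons is present in 91 members (77.1%) and in 83.1%. A match says only that the letters are in the probe.

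The limits of the rule, which apply to the processed signals, cut through a continuous range. The members nearest to the limit on the rise were Z00035217-1 at 1.4047 and Z00024624-1 at 1.4074 in the lesser of both rises, and the probes just outside were Z00066006-1 at 1.3992 and Z00031693-1 at 1.3972. At the day 4 limit, Z00026814-1 (0.2951) and Z00050478-1 (0.2935) were inside and Z00053839-1 (0.3058) and Z00056644-1 (0.3087) outside. At the day 2 limit, Z00038530-1 (0.2995) and Z00073889-1 (0.2962) were inside and Z00057793-1 (0.3009) and Z00049096-1 (0.3081) outside. Z00035217-1, just inside, still rose at both steps after withdrawal, by 0.69 (SE 0.072, limma adjusted p = 7.5e-07) and 0.29 (SE 0.072, adjusted p = 0.0068). Z00073889-1 went from 0.08 and 0.11 on day 0 to 0.37 and 0.39 on day 3 and 1.62 and 1.63 on day 4 after withdrawal, with 1.59 and 1.61 in continued tamoxifen.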

How the data were processed

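RNA from 20 samples was measured on Agilent 2-colour arrays. Per the file headers, the deposited scanner output is from Agilent Feature Extraction 9.5.1.1 and holds, as linear intensity, each spot's mean signal, local background and processed signal, with flags. The deposited series matrix holds log10 values of 25030 probes (75 members), with centring and normalization not given in the sources used here, and served as an alternative. The rule used processed signals as deposited: log2 sample over reference minus the array median, averaged per probe and group.

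For the tests, normexp (offset 50) was run on mean signals and local backgrounds, followed by loess in each array, with limma 3.58.1 (R 4.3.3). On the first untreated day 1 array, 12 local background cells above 10 times their channel's median were set to that median. Probes well above background on both arrays of a group were tested (29414). One group-means fit over 20 arrays had 10 residual degrees of freedom. Folds on this scale understate changes of dim probes, and 2 arrays per group limit precision. Each group lay on 1 of 5 slides, so slide could not be fitted. All 118 members passed the filter, 7 of them through day 4 groups alone, and 0 of their values were missing. On data simulated for day 3 against day 2 after withdrawal, with 200 changed probes of 29414, the fit called 56% of 1.25-fold, 92% of 1.5-fold and 100% of 2-fold changes, and 15 unchanged probes. In the data far more probes were called at that step, 13.7% higher and 11.7% lower. The adjusted p depends on that number, so these rates need not hold for the reported test.

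The members and lists were chosen with earlier results of these data known. The rule for named genes gave, without names, the 4 largest rises and the probes next to each limit. The 17 gene lists could not be applied, nor could sequences be limited to coding matches, so at most 30 bases of a probe are printed. Replicate numbers did not pair arrays: deviations of replicate 1 correlated between groups at -0.288 to 0.284, above 0.1 in 9 of 45 pairs.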

Additional observations from a re-analysis of the deposited data

How the results depend on the processing

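The direction of the counts in the 3 comparisons between days was the same under every alternative run, with higher calls far outnumbering lower ones. With local backgrounds as given, 31 members were called from day 1 to day 2, 27 from day 2 to day 3 after withdrawal and 21 on day 1 (4 higher and 17 lower, against 8.26% and 10.1% of all probes). Of these comparisons only that on day 1 holds the array with the 12 extreme background cells. Its median over members was then -0.22, and the medians of the others stayed as in the fit. With the series matrix 35 of its 75 members were called from day 2 to day 3 after withdrawal, all higher (all probes: 13.9% higher, 13.4% lower). With only the groups compared in the fit, 1 was called on day 1, higher (all probes: 2.72% higher, 3.40% lower). Leaving out 1 array at a time, the counts were 54 to 57, 45 to 54, 87 to 90, 0 to 0 and 4 to 18 in the order of the report (day 1 to 2, day 2 to 3, day 1 to 3, schedules on day 3, tamoxifen on day 1). These counts pool higher and lower calls. A change in them need not be specific to members, as the number called over all probes tested also changed with the array left out. The median over members was then 0.22 to 0.27, 0.19 to 0.25 and 0.56 to 0.61 in the 3 comparisons between days. Over all probes tested the median was 0.002 to 0.01, 0 to 0.001 and 0.01 to 0.023. With the replicate number as a block the counts were 68, 55, 93, 0 and 13. Of these, 66, 55, 92, 0 and 7 were higher and 2, 0, 1, 0 and 6 lower. Over all probes tested the block gave 21.4%, 13.5%, 28.6%, 0.156% and 9.46% higher and 18.2%, 11.7%, 23.1%, 0.391% and 9.39% lower. Since the numbers do not pair the arrays, this block is no paired analysis. The median rise from day 0 to day 4 was 1.74 and 1.76 (continued, withdrawn) on processed signals, 0.93 and 0.93 in the sample channel alone, and 1.72 and 1.76 in the series matrix. The rule found 207 probes at a rise of at least 1.2, 72 at 1.6, and 63 with both limits at 0.2. The difference of Z00038530-1 between day 3 and day 2 after withdrawal, -0.03 in the fit, was 1.08 on processed signals; it was well above background on neither day. The causes of these differences between settings were not tested. Dim signals limit the folds of the 45 members that were not detected on every array.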
